A study of Mus musculus with 2 samples.

Results

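The killer cell lectin-like receptors of the mouse were followed across the cells of KPC pancreatic tumours. Members were all genes of the deposited feature list whose symbol is Klr, then a letter from a to k, then a digit, which gave 26 of 32285 genes. All 26 had at least 1 UMI (unique molecular identifier, which counts 1 captured transcript molecule) in the kept cells. Of these, 24 had at least 20 UMIs over both libraries and are named with their values. The other two, Klrb1 and Klra10, had 9 and 19 UMIs.

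The study made 1 single-cell 3′ RNA library from each of 2 groups of mice with pancreatic tumours. The control mice were Porcn fl/fl littermates, which carry the conditional allele without Cre. The knockout mice were Csf1r-Cre;Porcn fl/fl, in which the Csf1r promoter drives Cre, so that Porcn, the enzyme that attaches the lipid WNT proteins need for secretion, is deleted in macrophages and other cells that have used that promoter. Both groups received KPC pancreatic cancer cells in the pancreas, and the tumours grew until day 21. The tumours of 5 mice per genotype were pooled into 1 library, so there is no replicate, no test and no p-value. Ages and strain backgrounds were not given in the sources used here. Strain alleles of the Klr genes were not examined, so the part of strain in their values was not tested. Each interval given is an exact 95% interval of the counts, which leaves out any difference between mice. Intervals of UMI levels and their ratios also leave out the bunching of UMIs in few cells. They are too narrow where a few cells hold most UMIs of a gene. Porcn had 7 and 4 UMIs in monocyte/macrophage-like cells of the control and knockout library and 0 in NK-like and CD8 T-like cells of both, and a 3′ count does not show whether the floxed exons were lost.

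These receptors are cell-surface proteins with a lectin-like domain that natural killer (NK) cells and some T cells use to read the surface of other cells. Inhibitory members recruit phosphatases to a motif in their tail when they meet MHC class I or related self molecules. Activating members lack that motif and signal through adaptors such as DAP12 (Tyrobp) or DAP10 (Hcst). Mice use the Klra family, known as Ly49, for much of what human NK cells do with the KIR family.

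All 26 members lie on chromosome 6 (GRCm38, GENCODE M21), and 24 of them sit in 1 stretch from Klrb1a to Klra2, chr6:128609227-131247362, known as the NK gene complex. The exceptions are Klrg2 (chr6:38625693-38637242) and Klrg1 (chr6:122270596-122282882). Within the stretch the genes run in blocks: the Klrb1 group, then Klre1, Klrd1 and Klrk1, then Klrc3, Klrc2 and Klrc1, then Klri1 and Klri2, and last 11 Klra genes on the minus strand. Some Klra genes are near copies. The 250 bases upstream of the RefSeq start (GRCm38.p6, minus strand) of Klra4, chr6:130067272-130067521, and of Klra8, chr6:130129899-130130148, were 84.5% identical in a pairwise alignment. Those of Klra9, chr6:130193113-130193362, and Klra3, chr6:130337627-130337876, were 83.3% identical. Both pairs are shown because the genes of each pair had opposite directions in NK-like cells, described further on. Capitals mark the bases that differ from, or have no partner in, the other gene of the pair, 38 in Klra4 and in Klra8 and 26 in Klra9 and in Klra3.
Klra4: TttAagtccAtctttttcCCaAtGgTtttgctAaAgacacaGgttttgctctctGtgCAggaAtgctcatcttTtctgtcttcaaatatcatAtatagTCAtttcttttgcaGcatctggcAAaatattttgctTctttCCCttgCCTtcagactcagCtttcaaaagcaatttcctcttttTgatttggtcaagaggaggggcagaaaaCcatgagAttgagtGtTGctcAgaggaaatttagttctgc
Klra8: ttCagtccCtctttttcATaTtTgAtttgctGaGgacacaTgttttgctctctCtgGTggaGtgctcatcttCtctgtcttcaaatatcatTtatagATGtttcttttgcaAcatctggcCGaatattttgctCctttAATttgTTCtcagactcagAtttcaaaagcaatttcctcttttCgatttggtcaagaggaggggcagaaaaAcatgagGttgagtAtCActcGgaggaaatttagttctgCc
Klra9: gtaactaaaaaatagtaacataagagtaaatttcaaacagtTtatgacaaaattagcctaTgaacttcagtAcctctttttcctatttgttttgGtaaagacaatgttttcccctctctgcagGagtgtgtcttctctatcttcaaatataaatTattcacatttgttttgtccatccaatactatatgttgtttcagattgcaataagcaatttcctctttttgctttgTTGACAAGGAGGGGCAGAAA
Klra3: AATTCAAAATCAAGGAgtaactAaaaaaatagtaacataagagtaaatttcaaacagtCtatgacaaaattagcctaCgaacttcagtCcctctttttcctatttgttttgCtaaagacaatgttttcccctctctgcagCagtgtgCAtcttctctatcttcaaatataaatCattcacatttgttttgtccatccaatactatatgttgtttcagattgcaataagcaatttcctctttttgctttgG

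The upstream windows of 23 members were in the RefSeq table (Klrd1, Klrg1 and Klri2 had none) and were searched on both strands for 3 motifs of lymphocyte transcription factors. The RUNX core, TGTGGT or ACCACA, was in 8 of the 23 (34.8%), against 14.2% of all 27025 windows of the table. Those 8 were Klrb1a, Klrb1c, Klre1, Klrk1, Klrc3, Klrc2, Klrc1 and Klra1. Klrc3 and Klrc2 hold the core in nearly the same flanking bases, and so do Klrb1a and Klrb1c, so the 8 are not independent. Klre1 was counted by its first listed start, and the window of its other listed start held 0. The T-box half-site, AGGTGT or ACACCT, was in 1 of 23, Klrb1, against 12.0% of all windows, and the AP-1 site TGANTCA was in 0 of 23 against 6.87%. The RUNX core and the T-box half-site can share letters, and no member held both. Klrc1, chr6:129678974-129679223, and 1 of the 2 listed starts of Klrc2, chr6:129660557-129660806, both on the minus strand, are shown with the RUNX core in capitals, because the encoded co-receptors had unlike values in CD8 T-like cells.
Klrc1: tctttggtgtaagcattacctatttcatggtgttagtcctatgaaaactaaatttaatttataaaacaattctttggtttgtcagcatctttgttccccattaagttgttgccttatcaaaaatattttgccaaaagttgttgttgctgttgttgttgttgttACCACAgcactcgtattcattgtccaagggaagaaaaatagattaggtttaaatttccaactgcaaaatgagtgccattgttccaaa
Klrc2: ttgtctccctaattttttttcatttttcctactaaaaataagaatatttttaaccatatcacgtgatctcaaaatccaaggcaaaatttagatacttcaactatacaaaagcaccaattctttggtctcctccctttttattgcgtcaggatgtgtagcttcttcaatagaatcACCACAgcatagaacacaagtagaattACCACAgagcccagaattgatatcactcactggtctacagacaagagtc

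Near copies also bear on the counting, because reads of a 3′ library fall near the end of the transcript. In the last 500 bases of the annotated transcripts, the share of 50-base windows that also occur in another Klr gene was 49.4% for Klra9, 43.5% for Klrc1, 40.6% for Klra10, 31.5% for Klra3, 24.9% for Klrc3, 22.1% for Klra7, 15.2% for Klrc2 and 13.1% for Klra8. The closest partner of Klrc1 was Klrc2, and Klra9 and Klra3 were closest to each other. Levels of these genes are therefore uncertain where reads fall in the shared stretch. The share was 4.66% for Klra4, 6.96% for Klra1, 9.84% for Klrb1a and 5.08% for Klrb1b, and no window was shared for Klrd1, Klrk1, Klre1, Klrg1, Klri2, Klra5, Klra17 or Klra2. Other gene models overlap Klrb1c, Klrb1b, Klrb1f and Klra17, and none overlaps Klra4.

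The matrices held 173934025 UMIs in 13766 control barcodes and 137527647 UMIs in 12251 knockout barcodes, and 46 barcodes occurred in both. After filtering and doublet removal 11516 control cells and 10467 knockout cells were kept. Cells were clustered with every Klr gene left out. The NK-like class had 38 control cells (0.330%, 0.234 to 0.453%) and 239 knockout cells (2.28%, 2.01 to 2.59%), a ratio of shares of 6.92 (4.90 to 10.0). The CD8 T-like class had 113 and 716 cells (6.97, 5.71 to 8.58), the CD4 T-like class 26 and 403 (17.1, 11.5 to 26.4), and T-like cells with neither or both coreceptors, called other T-like, 49 and 504. All 12 NK markers had UMIs in the NK-like class of both libraries. There the T cell markers summed to 1094 and 1502 CPM (CPM are UMIs of a gene scaled to 1e+06 UMIs of the class, control first throughout), against 5785 and 6101 CPM in CD8 T-like cells. In the same NK-like cells gamma-delta T markers summed to 152 and 332 CPM, markers of ILC1, a related innate lymphocyte, to 1218 and 945 CPM, and monocyte/macrophage markers to 1138 and 629 CPM.

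NK-like cells carried the most receptor mRNA of all classes, at about the same total in both libraries. The 26 members summed to 4769 CPM in the control (658 UMIs) and 4843 CPM in the knockout library (3950 UMIs), a ratio of 1.02 (0.935 to 1.10). With each cell classed from its own UMIs and no clusters, the totals were 2551 and 3035 CPM. CD8 T-like cells followed with 1837 and 1539 CPM (0.838, 0.779 to 0.903). Other T-like cells had 569 and 328 CPM and CD4 T-like cells 231 and 159 CPM. Among myeloid classes, cDC1-like cells (conventional type 1 dendritic cells) had 419 and 242 CPM, monocyte/macrophage-like cells 219 and 284 CPM and neutrophil-like cells 179 and 357 CPM. Fibroblast-like cells had 9.42 and 6.42 CPM, plasma-like cells 3.16 and 2.33 CPM, and B-like cells 0 and 13 UMIs. Levels are CPM of the summed UMIs of a class, and a 3′ UMI count is not scaled by transcript length.

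**Figure D1:**
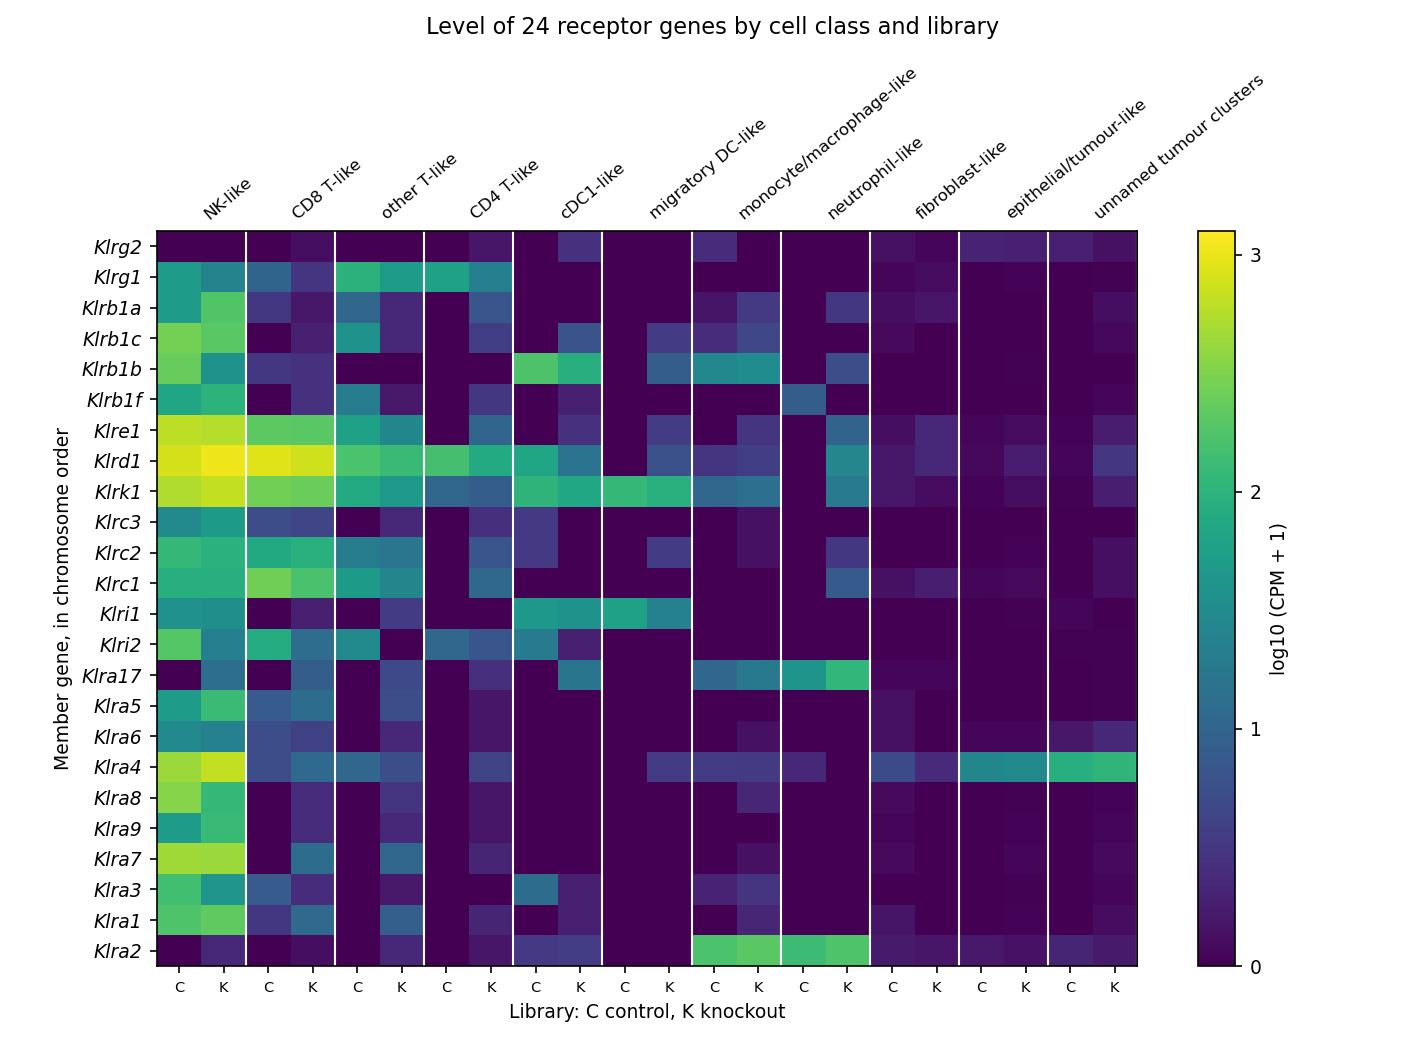
Heat map of the 24 named members (rows, in chromosome order) in 11 cell classes, each with its control (C) and knockout (K) column; colour is log10 of CPM plus 1. Klrd1, Klrk1 and Klre1 are bright in NK-like and CD8 T-like cells, most Klra genes in NK-like cells, Klra2 and Klra17 in myeloid cells, and Klra4 also in the tumour clusters.

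Klrd1 encodes CD94, the common partner of the NKG2 receptors, and had the most UMIs of the 26 members in both lymphocyte classes. In NK-like cells it was at 783 CPM (642 to 945) in the control and 1035 CPM (966 to 1107) in the knockout library, a ratio of 1.32 (1.08 to 1.63). In CD8 T-like cells it was at 884 and 756 CPM, a ratio of 0.855 (0.769 to 0.953). Its ratio thus lay above 1 in one class and below 1 in the other, and the difference between the classes was not tested. After each cell was thinned to 1000 UMIs, 31.4% of 35 control and 54.9% of 235 knockout NK-like cells had a Klrd1 UMI. Thinned to 2000 UMIs the shares were 82.1% (63.1 to 93.9%) of 28 and 77.1% (70.7 to 82.6%) of 205 cells, so the order of the libraries turned with the depth and none is read from these shares. The unthinned shares were 73.7% and 82.4%, at median depths of 3523 and 3145 UMIs. Epithelial/tumour-like cells, which should lack it, had a Klrd1 UMI in 0.160% and 0.875% of cells unthinned, at median depths of 13937 and 15672 UMIs.

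Klrc1, Klrc2 and Klrc3 encode NKG2A, NKG2C and NKG2E, which pair with CD94 and bind Qa-1, the product of H2-T23. NKG2A is inhibitory and the other two are activating. Klrc1 was lower in NK-like than in CD8 T-like cells of the control library, at 87.0 CPM against 269 CPM, a ratio of 0.324 (0.163 to 0.586). In the knockout library the classes were at 88.3 and 159.8 CPM (0.552, 0.426 to 0.707). So NKG2A mRNA was at the higher level in CD8 T-like cells of both libraries. Its ratio of knockout to control was 1.02 (0.547 to 2.06) in NK-like cells and 0.595 (0.488 to 0.730) in CD8 T-like cells. Klrc2 had 116 and 95.6 CPM in NK-like cells (0.825, 0.477 to 1.51) and 75.5 and 92.3 CPM in CD8 T-like cells (1.22, 0.857 to 1.80). Its intervals held 1 in both classes, unlike that of Klrc1 in CD8 T-like cells. Klrc3 was rare, at 29.0 and 47.8 CPM in NK-like cells and 4.44 and 3.51 CPM in CD8 T-like cells. The ligand gene H2-T23 was at 388 and 509.6 CPM in epithelial/tumour-like cells (1.31, 1.30 to 1.33).

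Klrk1 encodes NKG2D, the activating receptor for stress-induced ligands. It was at 536 and 645 CPM in NK-like cells (1.20, 0.941 to 1.56) and at 278 and 248 CPM in CD8 T-like cells (0.893, 0.739 to 1.09). Dendritic classes also held it, with 104 and 70.9 CPM in cDC1-like cells and 116 and 92.0 CPM in migratory DC-like cells. It was far lower in CD4 T-like cells, at 9.61 and 7.14 CPM, and in monocyte/macrophage-like cells, at 9.55 and 12.5 CPM. Of its ligand genes, Raet1e was at 14.2 and 14.2 CPM in epithelial/tumour-like cells (1.004, 0.926 to 1.09) and Ulbp1 at 8.87 and 9.47 CPM (1.07, 0.965 to 1.18). Raet1d, a further ligand gene, had 23 and 2 UMIs there. Its adaptor gene Hcst was at 326 and 424 CPM in NK-like cells and at 322 and 400.3 CPM in CD8 T-like cells.

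Klre1 encodes a partner chain that pairs with Klri1 to inhibit or with Klri2 to activate. It was at 609 and 573 CPM in NK-like cells (0.941, 0.744 to 1.20) and at 207 and 201 CPM in CD8 T-like cells (0.972, 0.782 to 1.22). Its partners differed from each other. Klri1 had 36.2 and 34.3 CPM in NK-like cells (0.947, 0.361 to 3.14), 43.9 and 37.6 CPM in cDC1-like cells, and 0 and 3 UMIs in CD8 T-like cells. Klri2 was at 188 CPM (123 to 276) in NK-like cells of the control library and 20.8 CPM (12.1 to 33.4) in those of the knockout library, a ratio of 0.111 (0.0563 to 0.212). In CD8 T-like cells it was at 82.2 and 12.0 CPM, a ratio of 0.146 (0.0912 to 0.234). In cDC1-like cells it had 8 and 1 UMIs (0.0473, 0.00107 to 0.353). The interval lay below 1 in each of these 3 classes. The UMIs came from 12 of 38 control and 7 of 239 knockout NK-like cells, and from 19 of 113 and 22 of 716 CD8 T-like cells. Without the cell with the most Klri2 UMIs in each library the ratio was 0.110 in NK-like and 0.146 in CD8 T-like cells.

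The Klrb1 group encodes the NKR-P1 receptors, among them NK1.1 (Klrb1c), the antigen by which NK cells of some strains are sorted. Klrb1c was at 283 and 201 CPM in NK-like cells (0.711, 0.499 to 1.04). Klrb1a, an activating member, was at 50.7 CPM (7 UMIs) in the control and 178 CPM (145 UMIs) in the knockout library, a ratio of 3.50 (1.66 to 8.87). Klrb1b, the inhibitory member that binds the Clec2d product, went the other way, at 239 CPM (33 UMIs) and 36.8 CPM (30 UMIs), a ratio of 0.154 (0.0906 to 0.260). Thus, between Klrb1a and Klrb1b, Klrb1b was the higher in control NK-like cells and Klrb1a in knockout NK-like cells. Klrb1c had a higher CPM than either in both libraries. Klrb1b was also held by myeloid cells. It was at 169 and 89.3 CPM in cDC1-like cells (0.529, 0.388 to 0.724) and at 27.1 and 30.8 CPM in monocyte/macrophage-like cells (1.14, 0.793 to 1.64). Klrb1f was at 65.2 and 99.3 CPM in NK-like cells (1.52, 0.764 to 3.45). Clec2d itself was at 181 and 254 CPM in NK-like cells and at 193 and 161 CPM in epithelial/tumour-like cells.

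The Klra genes encode the Ly49 receptors, most of which bind MHC class I. Together they held 1696 CPM (234 UMIs) in control and 1766 CPM (1440 UMIs) in knockout NK-like cells, a ratio of 1.04 (0.906 to 1.20). The activating pair Klra4 (Ly49D) and Klra8 (Ly49H) summed to 775 and 766 CPM (0.988, 0.804 to 1.22), but the genes of the pair differed in direction. Klra4 was at 428 CPM (326 to 552) and 649.9 CPM (596 to 708), a ratio of 1.52 (1.16 to 2.02). Klra8 was at 348 CPM (256 to 461) and 116 CPM (94.2 to 142), a ratio of 0.335 (0.234 to 0.484). In the control library their intervals overlapped, and in the knockout library Klra4 was the higher. Of the 59 control UMIs of Klra4, 93.2% came from the 10 cells with the most, and without the cell with the most in each library the ratio was 1.91 for Klra4 and 0.401 for Klra8.

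The inhibitory genes Klra1, Klra3, Klra5, Klra6, Klra7 and Klra9 summed to 899 and 969.9 CPM in NK-like cells (1.08, 0.892 to 1.31). They also differed in direction. Klra2, Klra10 and Klra17 were not in this sum. Klra7 (Ly49G) led the genes summed, at 449 and 434 CPM (0.966, 0.736 to 1.29), and Klra1 (Ly49A) was at 174 and 222 CPM (1.28, 0.831 to 2.04). Klra3 (Ly49C) was at 145 CPM (20 UMIs) and 40.5 CPM (33 UMIs), a ratio of 0.279 (0.156 to 0.513). Its near copy Klra9 (Ly49I) was at 50.7 CPM (7 UMIs) and 124 CPM (101 UMIs), a ratio of 2.44 (1.14 to 6.23). Klra3 and Klra9 share much of their transcript ends, so how their reads were divided is uncertain. Klra5 (Ly49E), which shares none, was at 50.7 CPM (7 UMIs) and 128 CPM (104 UMIs), a ratio of 2.51 (1.18 to 6.41). Without the cell with the most UMIs of each gene the ratios were 0.291 for Klra3, 5.18 for Klra9 and 3.94 for Klra5, and 5.68 for Klrb1a. Klra6 (Ly49F) had 4 and 18 UMIs. The class I genes were at 2525 and 2771 CPM (H2-K1) and 1728 and 1988 CPM (H2-D1) in epithelial/tumour-like cells.

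Klrg1, an inhibitory receptor for cadherins, was mostly a T cell transcript in these tumours. T-like cells held 62.5% of its control and 80.7% of its knockout UMIs. It was highest in the T cluster led by Ikzf2, Tnfrsf4 and Ctla4, at 311 CPM (174 to 513) in 15 control cells and 86.7 CPM (69.4 to 107) in 274 knockout cells. In the cytotoxic T cluster it had 4 and 7 UMIs. NK-like cells had 7 and 19 UMIs, or 50.7 and 23.3 CPM (0.459, 0.185 to 1.29), so the interval held 1. Without the cell with the most Klrg1 UMIs in each library the ratio was 0.911, within 2-fold. The cadherin gene Cdh1 was at 329 and 290.0 CPM in epithelial/tumour-like cells and Cdh2 at 78.1 and 63.8 CPM.

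Counted by a 2-fold rule (a ratio of CPM, each with a pseudocount of 1 UMI, past 2-fold in either direction, among genes with at least 20 UMIs over both sums), 21 members could be assessed between the libraries in NK-like cells. Of these 3 were at least 2-fold higher in the knockout library (Klrb1a, Klra5 and Klra9), where 5.88% of all 6110 genes assessed were. These 3 had 7 control UMIs each and reached 20 UMIs through the knockout library alone. Another 5 were at least 2-fold lower (Klrb1b, Klri2, Klra8, Klra3 and Klrg1), where 4.94% of all genes were. The median log2 ratio of the 21 was -0.07, against -0.03 over all genes. Of the 8 members past 2-fold, 7 had an interval that left out 1, and Klrg1 did not. The number lower was 3 with each cell classed from its own UMIs, and 3 among members with at least 50 UMIs. In CD8 T-like cells 11 members could be assessed. Of these 3 were at least 2-fold higher by this rule (Klra17, Klra7 and Klra1, with 0, 0 and 1 control UMIs), against 4.13% of 9705 genes. Another 1 was lower (Klri2), against 4.62%. All 3 higher members reached 20 UMIs through the knockout library alone. The intervals of Klra17 (0.828 upwards) and Klra1 (0.798 to 192) held 1, and that of Klra7 (1.33 upwards) did not. With at least 50 UMIs required, 0 members were higher, and with at least 1 UMI 8 were lower. These 8 include Klrg2 and Klra2, with 0 control and 1 knockout UMIs each and log2 ratios of -1.93. The pseudocount weighs more on the smaller control sum, which puts such low counts on the lower side. The median log2 ratio of the 11 members was 0.25, against -0.07 over all genes.

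**Figure D2:**
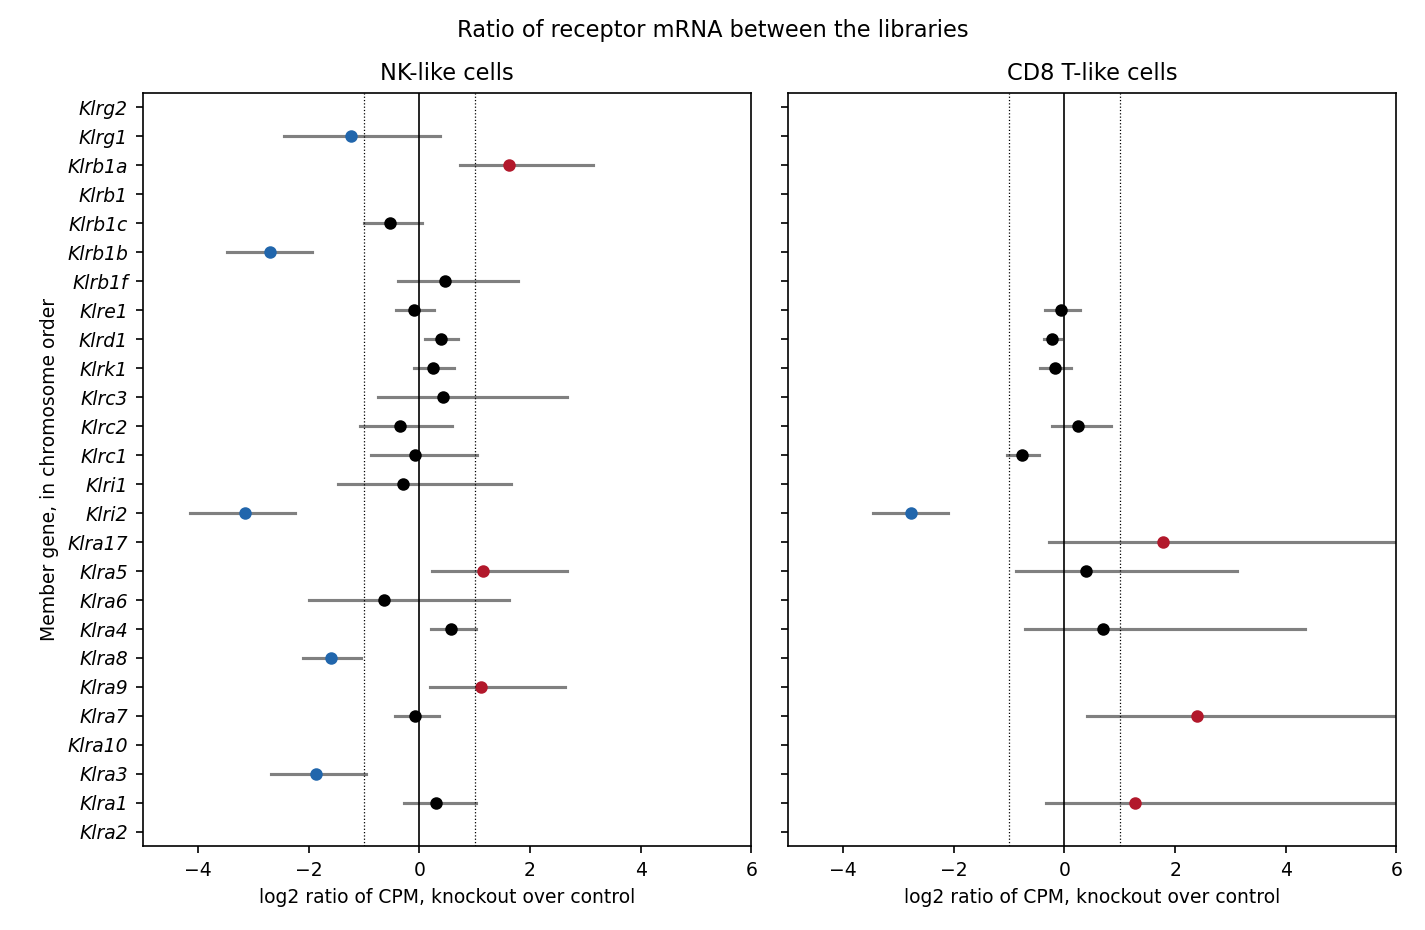
Log2 ratio of CPM, knockout over control, for members with at least 20 UMIs over both libraries, in chromosome order, in NK-like (left) and CD8 T-like (right) cells. Points carry a pseudocount of 1 UMI and are red or blue past 2-fold; bars are exact 95% intervals of the counts, cut at the edge of the axis; Klri2 is far to the left in both panels.

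Members past 2-fold in NK-like cells did not run in 1 block along the chromosome: Klra8 and Klra9, which lie next to each other, were lower and higher in the knockout library. Klra8 shared 13.1% of its transcript-end windows with Klra9, its closest partner, so how their reads were divided is uncertain. Inside the stretch from Klrb1a to Klra2 lie 27 other genes of the feature list. In NK-like cells 5 of them had enough UMIs, and their log2 ratios ran from -0.32 to 0.66, so 0 were past 2-fold. In CD8 T-like cells 6 had enough, from -0.85 to 0.57, again with 0 past 2-fold. The lowest of these, named after its values were seen, was Gm156, at 355 and 198 CPM (0.558, 0.469 to 0.667). Cd69, an early activation marker, was at 130.5 and 216 CPM (1.65, 1.02 to 2.86) in NK-like cells and at 82.2 and 125 CPM (1.53, 1.09 to 2.20) in CD8 T-like cells.

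Within a library, most members assessed stood higher in NK-like than in CD8 T-like cells. In the control library 9 of 13 were at least 2-fold higher in NK-like cells, against 7.76% of 4521 genes, and 1, Klrc1, was lower, against 9.75%. The 9 were Klrb1c, Klrb1b, Klre1, Klri2, Klra4, Klra8, Klra7, Klra3 and Klra1, and the median log2 ratio was 4.10 against 0.03 over all genes. Of these, Klrb1c, Klrb1b, Klra4, Klra8, Klra7, Klra3 and Klra1 reached 20 UMIs through NK-like cells alone. In the knockout library 17 of 22 were higher, against 7.3% of 10006 genes, and 0 were lower, against 7.51%, with a median of 3.95 against 0.08. Klrd1, Klrc2, Klrc1, Klri2 and Klra17 were the 5 members between the limits there. These include CD94 and its partners NKG2A and NKG2C. In the knockout library Klrb1a, Klrb1c, Klrb1b, Klrb1f, Klrc3, Klri1, Klra8, Klra9 and Klra3 reached 20 UMIs through NK-like cells alone. Members that pass in this way can hardly be counted as lower, so the counts and medians are partly set by the UMI minimum. Klrd1 had 0.886 times (0.709 to 1.10) and 1.37 times (1.27 to 1.48) the CD8 T-like level in NK-like cells. Klre1 was 2.95 times as high in NK-like cells in the control (2.17 to 4.002) and 2.85 times in the knockout library (2.53 to 3.21). Klrk1 was 1.93 times as high (1.43 to 2.60) and 2.60 times (2.33 to 2.91).

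The Ly49 genes and Klrb1c separated the classes by far more. Klra4 was 96.3 times as high in NK-like cells in the control library (25.5 to 814) and 61.8 times in the knockout library (44.1 to 89.2). Klra7 had 62 UMIs in control NK-like cells and 0 in CD8 T-like cells. With 3 UMIs taken as the floor it was 67.4-fold higher there (interval 53.2 upwards). In the knockout library it was 38.1 times as high (27.3 to 54.5). Klra8 was 52.2-fold higher against that floor in the control (40.9 upwards) and 79.7 times as high in the knockout library (33.0 to 251). These intervals are wide because CD8 T-like cells held few UMIs of each gene. Klrb1c was 42.4-fold higher against the floor in the control (32.9 upwards) and 229 times as high in the knockout library (77.1 to 1124).

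**Figure D3:**
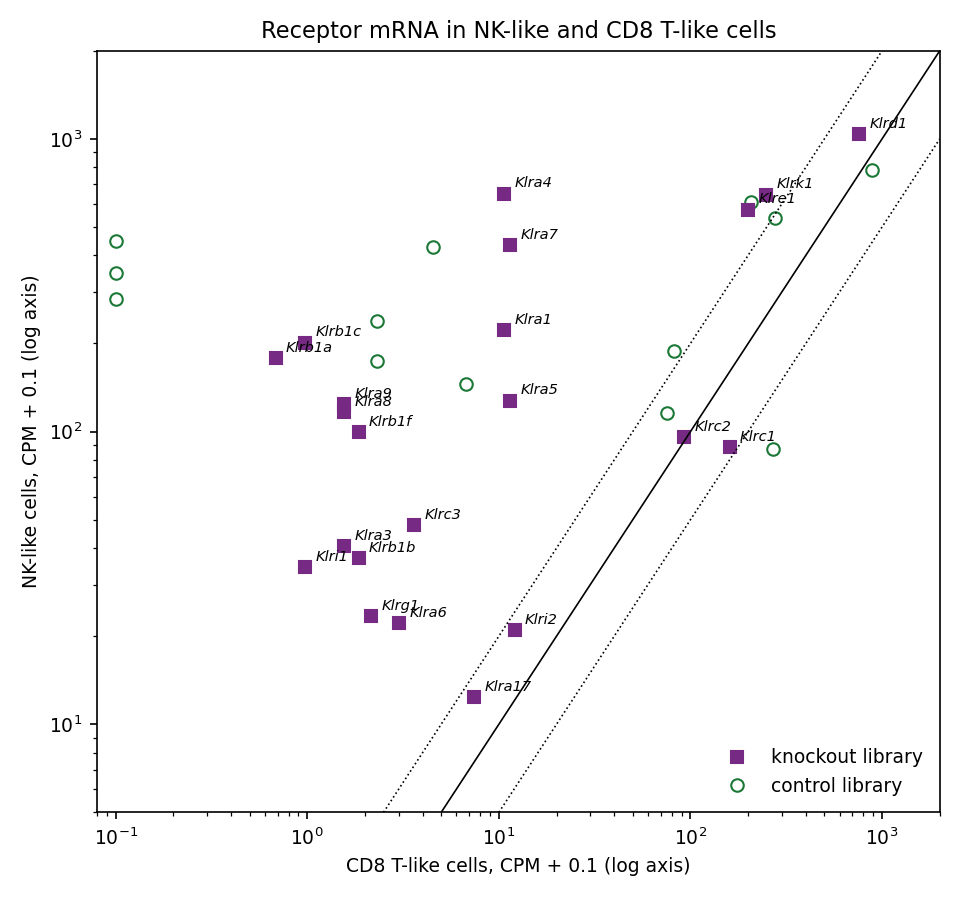
CPM in NK-like cells against CPM in CD8 T-like cells, both plus 0.1 on log axes, for members with at least 20 UMIs over the 2 classes of a library (open circles control, filled squares knockout with names). The solid line marks equal levels and the dotted lines 2-fold; Klrd1 lies near the solid line, Klrc1 on its CD8 T-like side, and the Klrb1 genes and the Klra genes other than Klra17 on the NK-like side.

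CD8 T-like cells of the knockout library had more Ly49 CPM than those of the control library. The Klra genes summed to 24.4 CPM (11 UMIs) and 58.7 CPM (201 UMIs), a ratio of 2.40 (1.32 to 4.89). Klra7 had 0 and 39 UMIs, 1.71-fold higher against a floor of 3 UMIs (interval 1.33 upwards). Klra17 had 0 and 25 UMIs, 1.10-fold higher against that floor, but its interval (0.828 upwards) held 1. Klra4 had 2 and 36 UMIs, Klra5 3 and 39, and Klra1 1 and 36. A UMI of any Klra gene was seen in 8 of 113 control (7.08%) and 109 of 716 knockout (15.2%) CD8 T-like cells, at median depths of 3030 and 4003 UMIs. After thinning to 1000 UMIs the shares were 3.57% (0.982 to 8.89%) and 4.65% (3.22 to 6.47%), and these intervals overlapped. In epithelial/tumour-like cells the thinned shares of any Klra were 1.70% and 2.32%, and most Klra UMIs there were of Klra4. The 12 NK markers summed to 4868 and 3650.5 CPM in CD8 T-like cells. Of these Ncr1 and Tyrobp were at 0 in the control and had 4 and 41 UMIs in the knockout library, and their part in the Klra values was not tested.

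Levels in CD8 T-like cells depended on which T cluster they came from. The cytotoxic cluster, led by Ccl5, Nkg7 and Cd3g, held 78.8% of control and 71.1% of knockout CD8 T-like cells. Within it Klrd1 was at 934 and 972 CPM (1.04, 0.926 to 1.17), Klre1 at 197 and 254 CPM (1.29, 1.003 to 1.69) and Klrk1 at 260.2 and 296 CPM (1.14, 0.912 to 1.44). So the lower Klrd1 level of the whole class was not seen in that cluster, but it was seen in smaller ones. In the cluster led by Tox, Cd247 and Cd3g, CD8 T-like cells had 874 CPM (621 to 1194) of Klrd1 in 13 control and 524 CPM (449 to 608) in 55 knockout cells. In the cluster led by Themis, Tox and Hist1h2ae they had 657 CPM (458 to 914) in 9 and 421 CPM (366 to 483) in 51 cells, with intervals that overlapped. In the cytotoxic cluster Klrc1 was lower, at 280.5 and 195 CPM (0.695, 0.557 to 0.876), and so did Klri2, at 83.9 and 10.9 CPM (0.130, 0.0725 to 0.231). In the knockout library the CD8 T-like cells of the cluster led by Skap1, Lef1 and Themis (93 cells) had 155 CPM of Klrd1, 32.6 CPM of Klrc1 and 13.6 CPM of Klre1. The control library had 2 CD8 T-like cells in that cluster.

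CD8 T-like cells with a UMI of a checkpoint gene (Pdcd1, Havcr2 or Lag3, which mark antigen-driven and exhausted T cells) had more Klrd1 in both libraries. In the knockout library 526 cells with such a UMI had 861 CPM of Klrd1 (827 to 897) against 319.9 CPM (278 to 366) in 190 cells without. Klre1 was at 236 against 55.6 CPM, Klrc1 at 179 against 82.6 CPM, Klrc2 at 103 against 46.6 CPM and Klrk1 at 268 against 165 CPM. For these 5 genes the intervals of the 2 sets of cells did not overlap. In the control library Klrd1 was at 937 CPM (846 to 1035) in 95 cells with and 346 CPM (189 to 581) in 18 without. In the control library the intervals overlapped for Klrc1, Klrc2 and Klrk1, with Klrc1 at 271 and 247 CPM and Klrk1 at 283 and 223 CPM. The cells with a checkpoint UMI were deeper, at median depths of 3497 and 4447 UMIs against 1879.5 and 3227, and the part of depth in these values was not tested.

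UMIs of several Ly49 genes could be seen in the same NK-like cell, and the number seen grew with the depth used. After thinning to 1000 UMIs, control cells had UMIs of 1.06 ± 1.11 different Klra genes (SD over 35 cells) and knockout cells of 1.16 ± 1.18 (235 cells). With all UMIs the means were 1.71 ± 1.52 and 1.94 ± 1.63, and the most in a cell was 5 and 7. Thinned to 2000 UMIs the means were 1.36 ± 1.31 (28 cells) and 1.64 ± 1.37 (205 cells). A gene with no UMI in a cell may still be expressed there, so these numbers do not limit how many Klra genes a cell holds. No Klra UMI was seen in 14 of 35 and 89 of 235 cells thinned to 1000 UMIs. Any Klra gene was seen in 1.70% and 2.32% of epithelial/tumour-like cells thinned alike. Most Klra UMIs of those tumour cells were of Klra4 (2882 and 2029 unthinned), so these shares are no background for the other Klra genes. An activating gene (Klra4 or Klra8) was seen in 40% of thinned control cells (23.9 to 57.9%), against 37.9% of knockout cells (31.6 to 44.4%). An inhibitory one (Klra1, Klra3, Klra5, Klra6, Klra7 or Klra9) was seen in 37.1% (21.5 to 55.1%) and 48.5% (42.0 to 55.1%). Both kinds were seen in 17.1% (6.56 to 33.6%) and 25.1% (19.7 to 31.2%). The intervals of the libraries overlapped for each of these 3 shares. Klra4 alone had UMIs in 34.2% of control and 50.2% of knockout NK-like cells unthinned, and in 25.7% and 34.5% thinned.

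**Figure D4:**
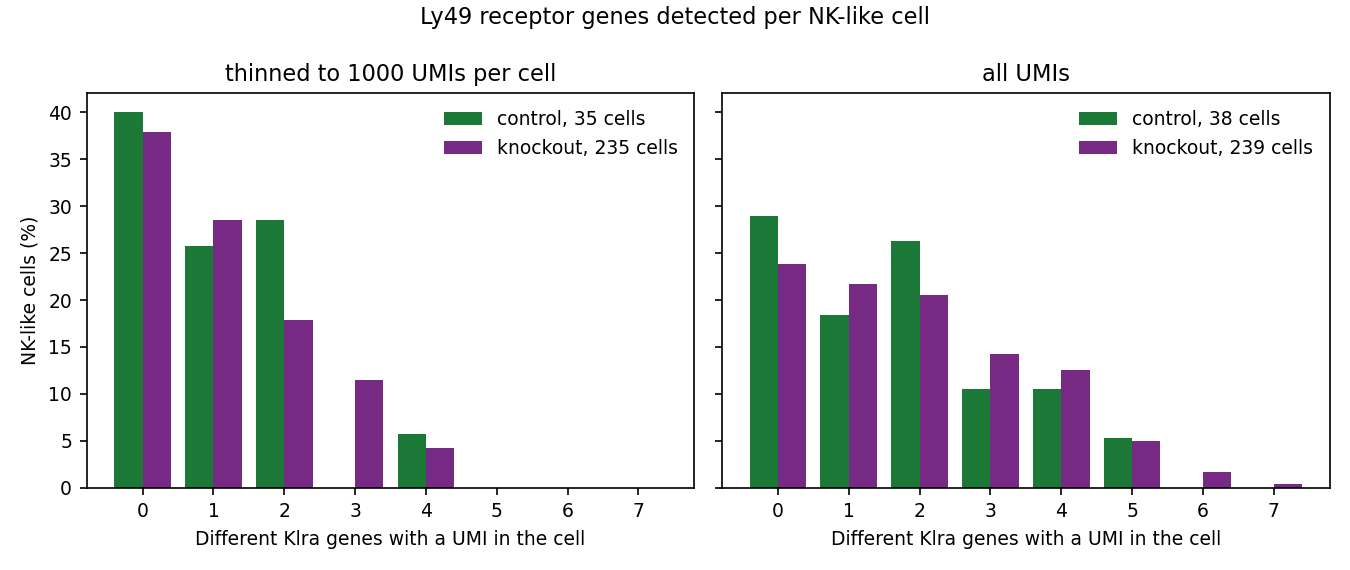
Percent of NK-like cells (vertical axis) by the number of different Klra genes with a UMI in the cell (horizontal axis), for the control and the knockout library, after thinning to 1000 UMIs per cell and with all UMIs. Most cells of both libraries show UMIs of 0 to 2 genes after thinning, and none of the thinned cells of more than 4.

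Myeloid cells had Ly49 genes of their own. Klra2 (Ly49B) was at 164 CPM (326 UMIs) in control and 204 CPM (524 UMIs) in knockout monocyte/macrophage-like cells (1.25, 1.08 to 1.44) and at 132 and 178 CPM in neutrophil-like cells (1.34, 0.997 to 1.81). It had 0 and 1 UMIs in NK-like cells. The libraries took these classes from different clusters: the one led by Arg1, Chil3 and Mmp12 held 175 control and 116 knockout monocyte/macrophage-like cells, that led by Ccl8, C1qa and C1qb 128 and 160, and that led by Lyz2, Ccl2 and Arg1 34 and 157. Klra2 was at 80.9 and 114 CPM in the first, 362 and 279 CPM in the second and 217 and 259 CPM in the last, so its direction differed between clusters. Klra17 (Ly49Q) was at 38.8 and 113 CPM in neutrophil-like cells (2.90, 1.83 to 4.66) and at 9.55 and 17.2 CPM in monocyte/macrophage-like cells (1.80, 1.03 to 3.26). In cDC1-like cells it had 0 and 17 UMIs, 2.14-fold higher in the knockout library against a floor of 3 UMIs (interval 1.56 upwards). Within clusters, Klra17 was at 34.5 CPM (20.4 to 54.5) and 43.4 CPM (30.2 to 60.4) in the Ccl8-led macrophage cluster, where the intervals overlapped. In the neutrophil cluster led by S100a9, S100a8 and Retnlg (105 control and 32 knockout cells) it was at 106 CPM (63.6 to 165) and 433 CPM (285 to 629.6), and in the one led by Cxcl2, S100a9 and S100a8 (134 and 142 cells) at 21.0 CPM (6.83 to 49.1) and 67.9 CPM (41.5 to 105). The intervals did not overlap in the first of these neutrophil clusters and did in the second. The neutrophil-like class of the knockout library also had 12 UMIs of Klrd1, against 0 in the control.

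Klra4 had the most UMIs of the 26 members, and most of them came from tumour cells. It had 6268 UMIs in kept control and 5897 in kept knockout cells, and 96.7% and 86.6% of them lay in tumour clusters, against 0.941% and 8.99% in NK-like cells. Epithelial/tumour-like cells had 25.5 CPM (24.6 to 26.5, 2882 UMIs) and 29.8 CPM (28.5 to 31.2, 2029 UMIs), a ratio of 1.17 (1.10 to 1.24). Clusters that scored best as epithelial/tumour but had no marker of that class among their leading genes, here called unnamed tumour clusters, had 86.3 CPM (83.3 to 89.3) and 107 CPM (103 to 111), a ratio of 1.24 (1.18 to 1.30). On the CPM scale this was still below the NK-like level of 428 and 649.9 CPM. A Klra4 UMI was in 861 of 2567 control (33.5%) and 880 of 1871 knockout (47.0%) cells of these clusters. Thinned to 1000 UMIs, the shares were 5.24% and 6.94%.

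Klra4 varied between the tumour clusters more than between the libraries. The cluster led by Igfbp3, Inhba and Tnnt2 had 121 CPM (116 to 126) and 123 CPM (119 to 128), with a UMI in 564 of 951 and 812 of 1280 cells. The one led by Fbxl7, Timp3 and Hmga2 had 133 CPM (124 to 142) in 302 control cells and 75.0 CPM (53.6 to 102) in 36 knockout cells. The cycling cluster, led by Ube2c, Cenpf and Top2a, had 85.8 and 61.4 CPM. These clusters held the most Klra4 among tumour cells. At the other end, the cluster led by Lgals4, Dmbt1 and Rbp2 had 4.43 and 5.68 CPM. Those led by Muc5ac, Lgals2 and Muc5b and by 9030622O22Rik, Ano1 and Onecut2 had 9.45 and 12.0 CPM and 9.44 and 10.5 CPM. Fibroblast-like cells had 3.96 and 1.34 CPM and acinar-like cells 11.8 and 21.8 CPM.

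Klra8, Klra7 and Gzma were far lower than Klra4 in the tumour cells. Klra8 had 3 UMIs in epithelial/tumour-like cells of each library, and Klra7 had 0 and 6. Gzma, a granzyme at 5001 and 5333 CPM in NK-like cells, was at 0.651 and 4.59 CPM in the unnamed tumour clusters. The 12 NK markers together summed to 50.1 and 52.1 CPM in epithelial/tumour-like cells and 37.5 and 44.2 CPM in the unnamed tumour clusters, where Ncr1 was at 0.0620 and 0.0441 CPM and 0.0271 and 0.556 CPM. In cells of these clusters with 0 UMIs of Ptprc, Nkg7 and Gzma, Klra4 stood at 85.4 CPM in 2536 control and 105 CPM in 1768 knockout cells. These were most of the 2567 control and 1871 knockout cells of the clusters, so the level had little room to differ from that of all cells. Klra6 was the other Ly49 gene with most of its UMIs in tumour clusters (76.6% and 55.3%), with 22 and 36 UMIs in the unnamed tumour clusters. Klrg2 had 95.5% and 87.8% of its UMIs in tumour clusters, at 1.01 and 0.897 CPM in epithelial/tumour-like cells.

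**Figure D5:**
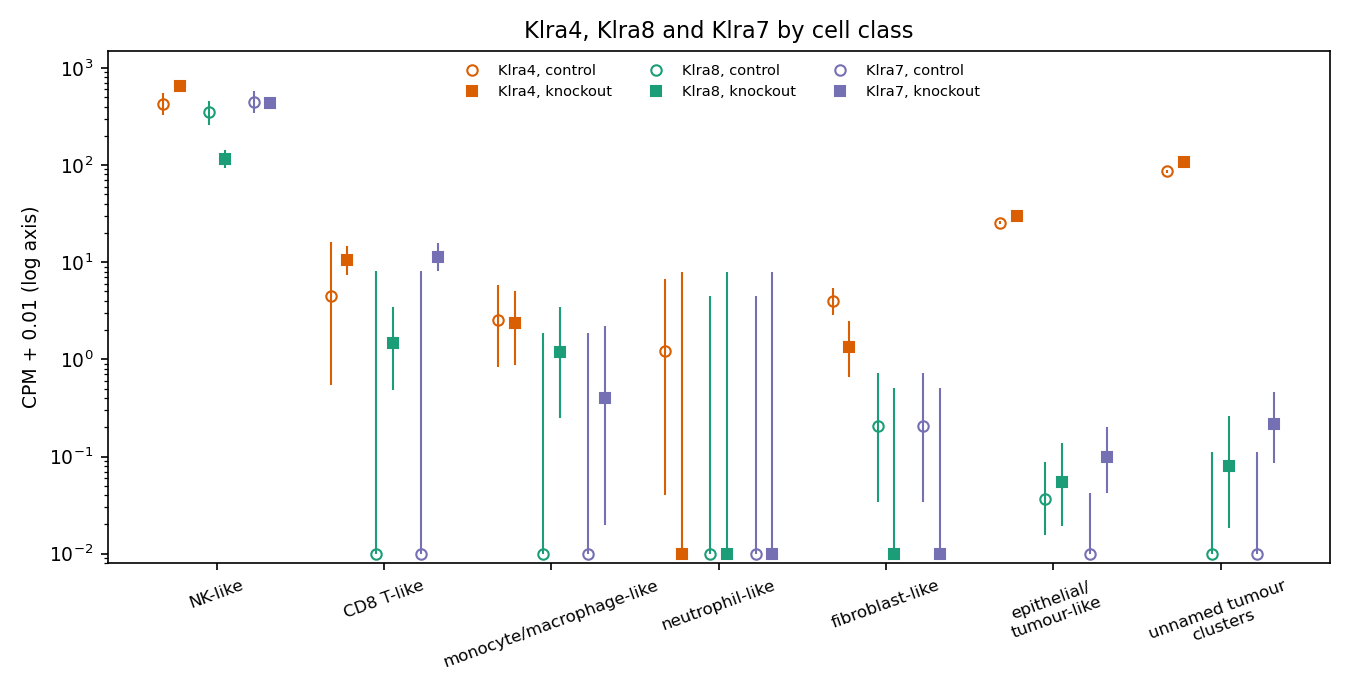
CPM plus 0.01 on a log axis of Klra4, Klra8 and Klra7 in 7 cell classes of the control (open circles) and the knockout (filled squares) library, with exact 95% intervals as bars. In NK-like cells all 3 genes are above 100 CPM, and in the tumour classes Klra4 alone of the 3 is above 1 CPM.

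The lymphocyte receptors were seen at a low level in tumour cells of both libraries. In epithelial/tumour-like cells Klrd1 was at 0.177 and 0.735 CPM, Klrk1 at 0.0797 and 0.309 CPM and Klre1 at 0.0974 and 0.2499 CPM. All 3 were higher in the library with more lymphocytes, as was the leukocyte gene Ptprc at 0.841 and 3.44 CPM. Klra4 had a ratio of 1.17 in the same cells, against 4.09 for Ptprc. The part of free RNA in these values was not tested.

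The partner genes of the receptors were followed as a list of 40 adaptors, signalling proteins, ligands and other NK receptors, of which 39 were in the feature list. In NK-like cells 30 could be assessed between the libraries, with 1 at least 2-fold higher (5.88% of all genes were) and 1 lower (4.94% of all genes were). Ptpn11, a phosphatase bound by inhibitory receptors, was the higher with 2 and 40 UMIs (3.38, 0.878 to 28.9), and Tigit, an inhibitory receptor, the lower with 9 and 23 UMIs (0.432, 0.193 to 1.06). Both intervals held 1. Tyrobp was at 1841 and 1444 CPM in NK-like cells (0.785, 0.685 to 0.902). Of the list 27 could be assessed in CD8 T-like cells, with 1 higher (4.13% of all genes were) and 0 lower (4.62%). The 1 was Tyrobp, with 0 and 41 UMIs, 1.80-fold higher against a floor of 3 UMIs (interval 1.40 upwards). These shares are near or below those of all genes. The median log2 ratio of the list was -0.16 in NK-like and -0.21 in CD8 T-like cells, against -0.03 and -0.07 over all genes. Between the classes, 6 of 25 partner genes were at least 2-fold higher in NK-like than in CD8 T-like cells of the control (7.76% of all genes were) and 2 lower (9.75%), and in the knockout library 9 of 31 were higher (7.3%) and 0 lower (7.51%). Tyrobp, Fcer1g, Ncr1, Cd244a and Crtam were among the higher ones in both libraries, and the first 3 of these are markers used to name the NK-like class.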

How the data were processed

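Deposited were whole-number UMI counts per gene and cell barcode, made with Cell Ranger 8.0.0 per the file headers and with Cell Ranger 3.1.3 on mm10 per the submitters' processing notes, with no normalization. The barcode and gene lists of the matrices, in the authors' deposited files, name their columns and rows. Barcodes under 500 genes or above 15% mitochondrial UMIs were dropped, which left 11664 and 10808 (control first), and Scrublet in scanpy 1.11.5 called 148 (1.27%) and 341 (3.16%) of them doublets, which were removed (expected rate 0.08). The remaining cells had medians of 12167.5 and 10109 UMIs. Clustering used 2000 variable genes without any Klr gene, 30 principal components, 15 neighbours and Leiden resolution 1 (igraph 0.11.9), and leukocytes were clustered again. Clusters were named from marker lists, and T-like cells were split by their Cd8a, Cd8b1 and Cd4 UMIs. That CD8 and CD4 markers count as a T cluster's own was decided after the clusters were seen. UMIs were summed per class and library (numpy 2.4.6, pandas 2.3.3), with exact Poisson, Clopper-Pearson or conditional binomial intervals (scipy 1.17.1). With 1 pooled library per group there was no test. Genes named were members with at least 20 UMIs. Ratios, intervals and thinning were run on simulated Poisson counts. These had no added spread between cells or mice, so bunching of UMIs in few cells was not covered. Promoter windows were aligned with biopython 1.88. Members and lists were chosen with earlier results of these data known. Alternatives changed the cell filter, doublet removal, clustering, class rules, summing, pseudocount, UMI minimum and thinning. In pooled tumours, fewer cells of a type and a different capture of that type cannot be told apart.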

Additional observations from a re-analysis of the deposited data

Results flagged for a closer look

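The ratio of knockout to control for Klrd1 was 1.32 (1.08 to 1.63) in NK-like cells and 0.855 (0.769 to 0.953) in CD8 T-like cells, so the gene differed in direction between the classes. The difference was not tested, since each class has 1 library per group. In CD8 T-like cells of the cytotoxic T cluster the ratio was 1.04 (0.926 to 1.17). Klrd1 was lower in the knockout library in the cluster led by Tox, Cd247 and Cd3g. It was also lower in that led by Themis, Tox and Hist1h2ae, where the intervals overlapped. In the cluster led by Skap1, Lef1 and Themis it was at 152 CPM in 2 control cells (1 UMI) and 155 CPM in 93 knockout cells.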

How the results depend on the processing

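No paired analysis was possible because each group has 1 library. No member past 2-fold changed direction under the settings run, but some within 2-fold did. In CD8 T-like cells the log2 ratio of Klrd1 ranged from -0.28 to 0.05 (-0.23 as reported), that of Klrk1 from -0.19 to 0.17 and that of Klre1 from -0.13 to 0.35. The share ratios of the NK-like and CD8 T-like classes ranged from 5.53 to 8.59 and from 6.70 to 8.24 over 8 alternatives each. Of 234 values of the main results under other settings, 38 moved beyond their counting interval or a count by over 1.5 times, and of 778 values of single genes 18 did. The sum of all members in NK-like cells (4769 CPM in the control and 4843 CPM in the knockout library) was 5084 CPM in the knockout library with the strict cell filter, 3994 CPM in the control with the loose filter, 5039 CPM in the knockout library with doublets kept, and 4042 CPM in the control at Leiden resolution 0.5. In NK-like cells with no T cell UMI, a choice made after seeing the data, it was 5195 and 5604 CPM. With each cell classed from its own UMIs it was 2551 and 3035 CPM in NK-like and 1381 and 1346 CPM in CD8 T-like cells. The sum in knockout CD8 T-like cells was 1599 CPM with the loose filter and 1601 CPM with at least 2 coreceptor UMIs, and in control CD8 T-like cells 1668 CPM as a mean over cells. In knockout CD4 T-like cells it was 181 CPM with the loose filter, 139 CPM with Klr genes in the clustering and 193 CPM with at least 2 coreceptor UMIs.

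With each cell classed from its own UMIs, 3 members were at least 2-fold lower in knockout NK-like cells, 1 was lower in NK-like than in CD8 T-like cells of the knockout library, and of the partner genes 3 were lower in NK-like cells, 3 higher in CD8 T-like cells and 1 lower there. With at least 50 UMIs, 3 members were lower in NK-like cells, 0 higher in CD8 T-like cells and 4 higher in NK-like than in CD8 T-like cells of the control, and 0 partner genes were higher or lower in NK-like cells or higher in CD8 T-like cells. With at least 1 UMI, 8 members were lower in CD8 T-like cells. In the control library 18 were then higher in NK-like than in CD8 T-like cells. At that minimum 2 and 4 partner genes were lower in NK-like and CD8 T-like cells. At so few UMIs the pseudocount of 1 UMI sets much of the ratio, because the sums compared differ in size. Partner genes lower in NK-like cells were 2 with the strict and 0 with the loose filter, and 1 was lower in CD8 T-like cells as a mean over cells. The share of cells with Klrd1 was 42.9% in control and 45.6% in knockout CD8 T-like cells thinned to 1000 UMIs, 80.9% and 63.3% thinned to 2000 UMIs, which turns the order, and 77.0% and 74.7% unthinned. In NK-like cells the order turned too. Knockout NK-like cells with any Klra gene were 62.1% at 1000 UMIs, 74.1% at 2000 UMIs and 76.2% unthinned. The strict filter left 0 control doublets called, so its doublet removal did not work there. The 38 control NK-like cells limit the precision of every NK-like ratio. Except for the UMI minimum, the cause of these shifts was not tested.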
